A study of Mus musculus with 8 samples.

Results

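The interaction of VHL loss and FIH loss was measured over all 8 arrays of the series, as the difference between the change that FIH loss brought in VHL null cells and the change it brought in cells with VHL. For each gene the value was (VHL/FIH null minus VHL null) minus (FIH null minus wild type), taken on group means of log2(signal + 16). It is positive where the VHL/FIH null signal lay above the product of the 2 single changes and negative where it lay below. Each value is therefore also the difference between the change with VHL loss in FIH null cells and that in cells with FIH. Of 18193 genes with a probe set on the array, 11564 were tested. A probe set entered the test where 2 or more arrays gave a signal over 291.1, the median across the data set, and the brightest such probe set stood for its gene. The 4 groups were VHL/FIH null, VHL null, FIH null and wild type mouse embryonic fibroblasts, with 2 arrays each. All were described as immortalized with large T antigen and grown at 21% oxygen in high glucose medium. Each null group came from its own line, named VHLdf/FIHdf, VHLdf or FIHdf, by infection with an adenovirus for Cre recombinase, so genotype and parent line cannot be told apart. The labels call the arrays of a group biological replicates without saying whether they came from separate embryos or cultures, so the p-values below measure only the spread between these samples.

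VHL is the substrate-binding part of a ubiquitin ligase that marks the alpha subunits of the hypoxia-inducible factors (HIF) for destruction once prolyl hydroxylases of the Egln family have modified them. FIH, the product of Hif1an, hydroxylates an asparagine in the transactivation domain of the same subunits and so keeps them from binding the coactivators p300 and CBP, and it also modifies ankyrin-repeat proteins such as Notch receptors. In cells with VHL and oxygen there is little HIF for FIH to act on, whereas cells without VHL hold stable HIF whose activity FIH can still restrain. The design therefore asks whether FIH loss changes expression differently when VHL is absent.

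The arrays had median signals of 281.5 to 307.1, and the correlation of log2 signals was 0.987 to 0.988 for the 4 pairs within groups and 0.946 to 0.977 for the 24 pairs between groups. Hif1an had signals of 1404 and 1169 in VHL/FIH null cells, 1913 and 2153 in VHL null cells, 1676 and 1707 in FIH null cells and 2722 and 3013 in wild type cells. With FIH loss it fell by 0.66 (log2) in VHL null cells and fell by 0.75 in cells with VHL, and the interaction was 0.097 ± 0.17 (SE; limma's adjusted p = 0.716). Vhl had signals of 1061 and 897 in VHL/FIH null cells, 708 and 754 in VHL null cells, 3534 and 3426 in FIH null cells and 3269 and 3319.6 in wild type cells, low in both groups labelled VHL null without overlap, and an interaction of 0.33 ± 0.16 (adjusted p = 0.163). Whether either probe set lies in the deleted exons was not tested, and transcript remained on every array. The fibroblast markers summed to 331474 to 376596 in VHL/FIH null cells, 307768 to 319587 in VHL null cells, 359828 to 384890 in FIH null cells and 306806 to 319725 in wild type cells. Of 14 with a probe set, 9 were above the cutoff on all 8 arrays and 2 were below it on all 8. Pdgfra, a receptor that marks fibroblasts, was among the others: it had 160.4 and 189.8 in VHL/FIH null cells, 1616 and 2024 in VHL null cells, 899 and 708 in FIH null cells and 777 and 1243 in wild type cells, below the cutoff in VHL/FIH null cells alone, at least 6.25-fold under VHL null cells (interaction adjusted p = 0.000162). Dcn, named after its values were seen, was below the cutoff in both groups without FIH. It had 47.7 and 212.8 in VHL/FIH null cells, 1128 and 984 in VHL null cells, 148 and 78.2 in FIH null cells and 588 and 632 in wild type cells. Macrophage markers were below the cutoff on every array for 11 of 14. The epithelial sum was 41713 to 48857 in VHL/FIH null cells, against 17630 to 18009 in VHL null, 12660 to 13089 in FIH null and 11871 to 12227 in wild type cells. Of its 14 genes 7 were below the cutoff on every array, and most of the sum was Krt19, an intermediate filament keratin, with 46125 and 39118 in VHL/FIH null cells, 14779 and 14849 in VHL null cells, 9074 and 8714 in FIH null cells and 7962 and 7557 in wild type cells. Krt18, another keratin of the list, went the other way, with 382 and 298 in VHL/FIH null cells, 631 and 684 in VHL null cells, 1267 and 1360.3 in FIH null cells and 1356 and 1393 in wild type cells. Their interactions were 1.32 ± 0.11 and -0.86 ± 0.24 (adjusted p = 1.15e-05 and 0.0246; that of Krt18 up to 0.161 over the alternatives), and the part of these differences in the results below was not tested.

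Across the transcriptome 2533 of 11564 tested genes had an interaction at an adjusted p under 0.05, which is 21.9%. Of these, 1554 were positive (13.4% of those tested) and 979 negative (8.47%), and 486 positive and 150 negative ones were at least 2-fold. Without the first FIH null array 1648 genes were called, 587 of them negative. For 216 positive and 73 negative calls at least 1 array was at or below the cutoff, and the size of such an interaction depends on the pseudocount. Called genes had a median size of 0.68 (log2) among the positive and 0.49 among the negative. The median interaction of all tested genes was 0.064. The share of positive calls depended on the scaling of the arrays: 61.4% of calls were positive on the deposited scale, 40.4% after centring each array's median, 86.5% after scaling to the hybridization controls and 46.3% after centring each chromosome. Scaling to those controls moved the median of all genes to 0.23. In bulk RNA of this kind fewer cells of a type and less RNA per cell cannot be told apart.

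Most interactions were a change with FIH loss that passed the test in VHL null cells and did not in cells with VHL. FIH loss in VHL null cells changed 4355 genes (37.7%; 2574 higher, 22.3%, and 1781 lower, 15.4%), whereas FIH loss in cells with VHL changed 758 (6.55%; 227 higher, 1.96%, and 531 lower, 4.59%). The second count depended on single arrays and on scaling: it was 356 and 394 without the first and second FIH null array, 371 and 373 without the first and second wild type array, and 4992 after scaling to the hybridization controls. Among the 2533 genes with an interaction, 1956 (77.2%) passed in VHL null cells alone, 1163 of them higher and 793 lower. Another 151 (5.96%) passed in cells with VHL alone, 132 (5.21%) passed in both in opposite directions, 126 (4.97%) passed in both in the same direction with unequal size, and 168 passed in neither. The 2 changes share no array: 484 genes passed both, which is 11.1% of those called in VHL null cells and 63.9% of those called in cells with VHL. Of these, 352 went the same way and 132 opposite ways. Seen from VHL, its loss changed 5267 genes in FIH null cells (45.5%; 2380 higher, 20.6%, and 2887 lower, 25%) and 5067 in cells with FIH (43.8%; 1788 higher, 15.5%, and 3279 lower, 28.4%). Both passed for 3087 genes, 2700 in the same and 387 in opposite directions.

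Which group was highest or lowest is partly fixed by the sign of the interaction, so the order of the groups is given as a description. Among the 1554 positive ones VHL/FIH null cells had the highest mean of the 4 groups for 1089 (70.1%) and wild type cells for 308 (19.8%), while VHL null cells had the lowest for 928 (59.7%) and FIH null cells for 547 (35.2%). Among the 979 negative ones VHL/FIH null cells had the lowest mean for 783 (80.0%) and wild type cells for 120 (12.3%), and VHL null cells had the highest for 561 (57.3%).

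**Figure D1:**
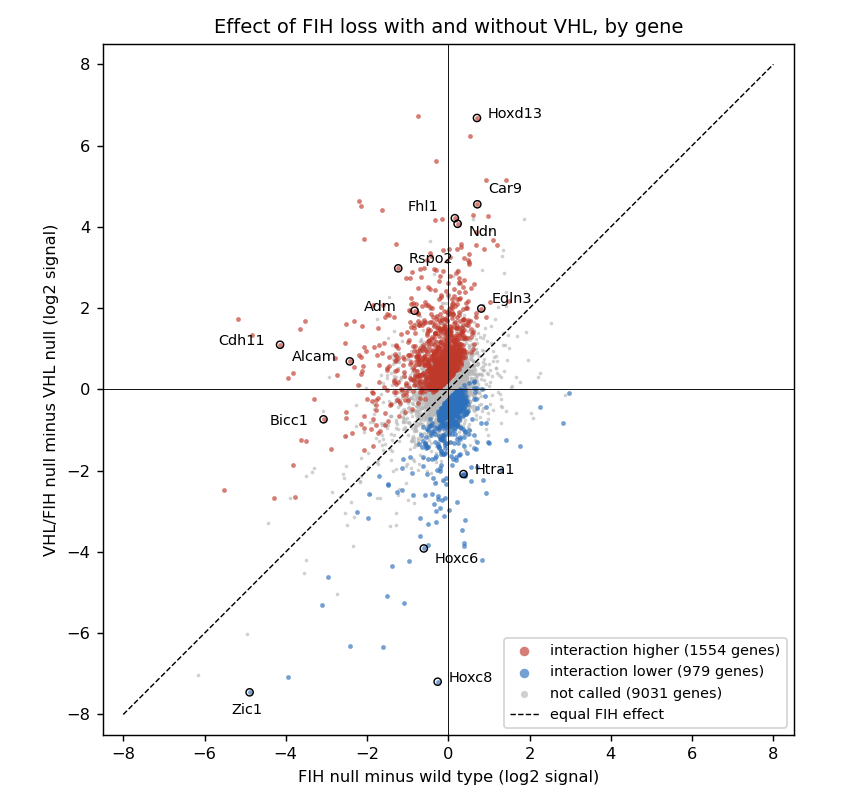
Each point is a tested gene, with its change from FIH loss in VHL null cells (VHL/FIH null minus VHL null, vertical axis) against that in cells with VHL (FIH null minus wild type, horizontal axis), both as log2 signal. Red and blue points are the 1554 positive and 979 negative interactions, grey points the other genes, and the dashed line marks equal changes. The coloured points spread mostly up and down the vertical axis, and the upper left holds genes such as Rspo2 and Adm that moved in opposite directions.

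Interactions were unevenly spread over chromosomes. On chromosome 18, 147 of 285 tested genes were called (51.6%), 131 of them negative and 16 positive, with a median of -0.34. Chromosome 5 had 233 of 748 called (31.1%), 189 negative and 44 positive, with a median of -0.18, and chromosome 9 had 200 of 649 (30.8%), 180 positive and 20 negative, with a median of 0.26. Medians of the other chromosomes ran from -0.12 on chromosome 15 to 0.19 on chromosome 13. Without the genes of chromosomes 5, 9 and 18, 1855 of 9882 genes were called (18.8%). A different number of chromosome copies between these lines was not tested.

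Among hypoxia-inducible genes Adm, Car9 and Egln3 had large positive interactions. Adm encodes adrenomedullin, a vasodilator peptide and HIF target, and its signals were 18836 and 16327 in VHL/FIH null cells, 4348 and 4810.1 in VHL null cells, 578 and 521 in FIH null cells and 933 and 1048 in wild type cells. Signals were highest in VHL/FIH null cells and the groups did not overlap. With FIH loss Adm rose by 1.94 (log2) in VHL null cells and fell by 0.83 in cells with VHL. The mean of 17582 in VHL/FIH null cells compares with 2564 from multiplying the single changes (interaction 2.77 ± 0.15, adjusted p = 6.99e-07). Car9 encodes carbonic anhydrase 9, a cell-surface enzyme that acidifies the surroundings of hypoxic cells, and had 8284 and 7768 in VHL/FIH null cells, 243 and 436 in VHL null cells, 251 and 240.0 in FIH null cells and 130.3 and 158 in wild type cells. Only the VHL/FIH null arrays were far above the cutoff of 291.1, and the difference of 4.56 from VHL null cells passed (adjusted p = 2.89e-07). They were at least 27.6-fold above FIH null cells, and the interaction was 3.84 ± 0.37 (adjusted p = 4.48e-05). Egln3 encodes the HIF prolyl hydroxylase PHD3, itself induced by HIF, and had 17534 and 16702 in VHL/FIH null cells, 4188 and 4412 in VHL null cells, 1086 and 1106 in FIH null cells and 633 and 603 in wild type cells. The 4 groups stood apart in that order, and with FIH loss Egln3 rose by 1.99 in VHL null cells and by 0.81 in cells with VHL (interaction 1.18 ± 0.12, adjusted p = 6.51e-05).

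The 250 bases before the start of these 3 genes are shown because the core of the HIF binding motif, ACGTG or GCGTG on either strand, was searched there. Capitals mark each match. Sequences are from RefSeq on GRCm38.p6, given 5' to 3' on the strand of the gene: Adm on chr7:110627407-110627656 (plus strand), Car9 on chr4:43506776-43507025 (plus strand) and Egln3 on chr12:54203875-54204124 (minus strand).
Adm: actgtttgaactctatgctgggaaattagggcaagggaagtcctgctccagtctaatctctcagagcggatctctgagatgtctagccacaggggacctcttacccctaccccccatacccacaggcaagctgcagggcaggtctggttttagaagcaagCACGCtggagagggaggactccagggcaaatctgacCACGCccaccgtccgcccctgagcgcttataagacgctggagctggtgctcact
Car9: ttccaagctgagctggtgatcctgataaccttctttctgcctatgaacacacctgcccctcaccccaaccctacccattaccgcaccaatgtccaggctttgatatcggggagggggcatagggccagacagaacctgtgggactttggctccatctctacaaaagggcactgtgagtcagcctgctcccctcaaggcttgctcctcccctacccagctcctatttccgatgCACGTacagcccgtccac
Egln3: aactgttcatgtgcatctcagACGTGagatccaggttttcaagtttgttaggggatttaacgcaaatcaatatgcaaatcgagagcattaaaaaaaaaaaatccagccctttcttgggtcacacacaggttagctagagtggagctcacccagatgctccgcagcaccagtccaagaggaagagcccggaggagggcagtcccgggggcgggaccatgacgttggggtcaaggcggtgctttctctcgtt
Adm holds 2 matches, Car9 holds 1 next to the start of the gene, and Egln3 holds 1 near the far end of the window. The motif is common, present in 38.6% of 27025 such windows and in 57.7% of the 9382 tested genes that have one. A match is therefore only a description, and binding was not tested.

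Of 48 tested members of a list of hypoxia-inducible genes outside glycolysis (38 of them with a promoter window), 19 had a positive and 2 a negative interaction, beside 13.4% and 8.47% of all tested genes, and the list's median was 0.32 beside 0.064. That median stayed positive, between 0.22 and 0.49, under the 4 other scalings, while the positive calls numbered 12 with centring each chromosome and 24 with scaling to the hybridization controls. VHL loss in cells with FIH raised 40 of the 48, beside 15.5% of all tested genes. FIH loss raised 24 and lowered 4 in VHL null cells, beside 22.3% and 15.4% of all tested genes. In cells with VHL it raised 9 and lowered 5, beside 1.96% and 4.59% of all tested genes. Among the 19 positive members, 17 rose with FIH loss in VHL null cells, as did 1311 of the 1554 positive genes in all, and in cells with VHL 3 rose and 4 fell. Selenbp1, which encodes a selenium-binding protein with methanethiol oxidase activity, had 3986 and 3473 in VHL/FIH null cells, 419.8 and 348 in VHL null cells, 339 and 386 in FIH null cells and 221 and 332 in wild type cells. Its VHL/FIH null arrays stood alone, and the other 3 groups lay close together around the cutoff (interaction 2.84 ± 0.32, adjusted p = 0.00014).

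Of the 21 called members 9 were called under every alternative: Adm, Car9, Egln3, Selenbp1 and, named after their values were seen, Ndrg1, Ddit4, Ccng2, Ero1a and Angptl4. Ndrg1, a stress-responsive gene linked to growth arrest, had 23885 and 23056 in VHL/FIH null cells, 22029 and 22554 in VHL null cells, 5491 and 5368 in FIH null cells and 7217 and 7714 in wild type cells. Both groups without VHL were high and nearly equal, and the interaction of 0.53 ± 0.083 (adjusted p = 0.00119) lies in the cells with VHL, where Ndrg1 fell by 0.46 with FIH loss. Ddit4 encodes REDD1, an inhibitor of mTORC1, and had 24220.5 and 21610.4 in VHL/FIH null cells, 11802 and 11999.6 in VHL null cells, 11264 and 12138 in FIH null cells and 9266 and 9282 in wild type cells. Ddit4 was highest in VHL/FIH null cells, while VHL null and FIH null arrays overlapped (interaction 0.61 ± 0.095). Ero1a, an oxidase of the endoplasmic reticulum that forms disulfides, and Ccng2, an atypical cyclin that rises in growth arrest, had interactions of 0.44 ± 0.094 and 0.55 ± 0.097. Angptl4, a secreted inhibitor of lipoprotein lipase, went the other way, with 1017 and 805 in VHL/FIH null cells, 1791 and 1627 in VHL null cells, 866 and 1146 in FIH null cells and 888 and 841 in wild type cells. It was high in VHL null cells alone, and with FIH loss there it fell by 0.90 (interaction -1.11 ± 0.24, adjusted p = 0.0075).

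Several well-known targets had smaller, unstable or no called interactions. Vegfa and Stc1 were named after their values were seen. Vegfa, the angiogenic growth factor, had 10414 and 8742 in VHL/FIH null cells, 6022 and 7120.0 in VHL null cells, 3201 and 3562 in FIH null cells and 3526 and 3242 in wild type cells, highest in VHL/FIH null cells without overlap (interaction 0.54 ± 0.15, adjusted p = 0.0241). The call was lost under some alternatives, where adjusted p ran from 0.00283 to 0.154. Stc1, which encodes the glycoprotein stanniocalcin, had 5502 and 5034 in VHL/FIH null cells, 4939.5 and 5182 in VHL null cells, 40.4 and 43.5 in FIH null cells and 185 and 132 in wild type cells, overlapping with and without FIH when VHL was absent. VHL/FIH null cells were at least 18.1-fold above FIH null cells and VHL null cells at least 17.4-fold above wild type cells, and its interaction of 1.63 ± 0.27 (adjusted p = 0.00156) rests on signals below the cutoff in both groups with VHL. The call was lost on linear signals and with low signals raised to the cutoff (adjusted p 0.000317 to 0.823 over the alternatives). The 4 uncalled members with the highest mean were Fam162a, Higd1a, Lox and Tfrc, a mitochondrial stress protein, a mitochondrial inner-membrane protein, the collagen cross-linker lysyl oxidase and the transferrin receptor. Fam162a had 102429 and 83067 in VHL/FIH null cells, 74429.5 and 72561 in VHL null cells, 30017 and 29670.2 in FIH null cells and 25382 and 25845 in wild type cells, a large difference between cells without and with VHL in both FIH backgrounds. Interactions of the 4 were 0.11, 0.11, -0.27 and 0.29 (adjusted p = 0.544, 0.463, 0.182 and 0.0947), and the sign turned with centring each chromosome for the first 3.

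**Figure D2:**
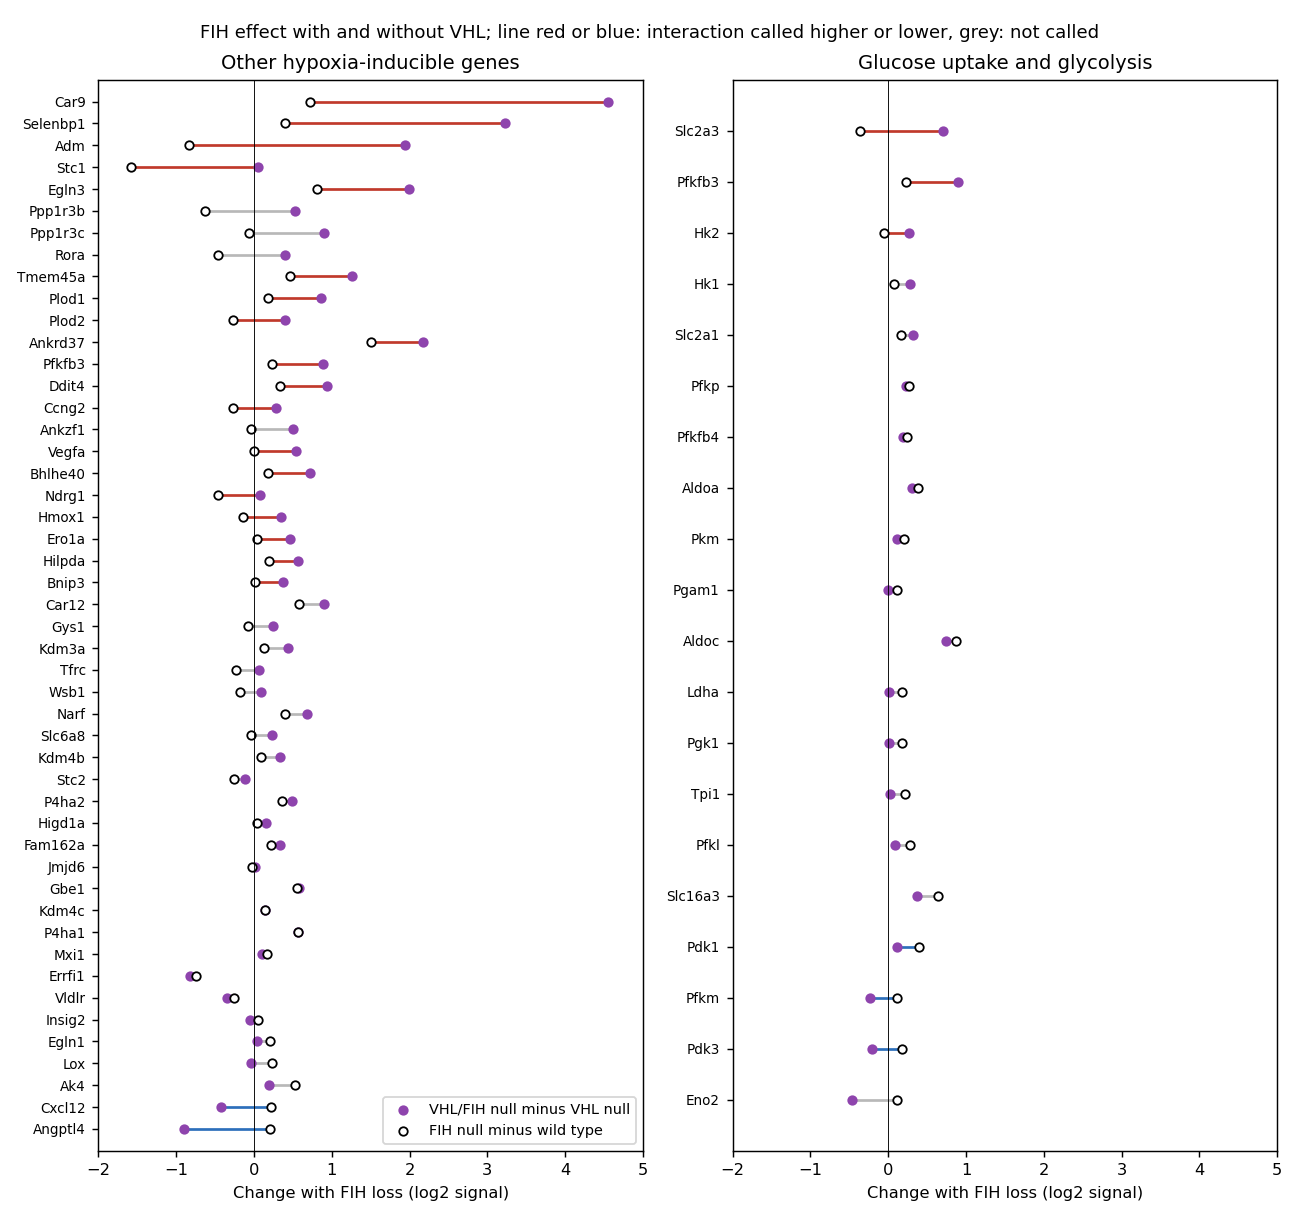
Filled points give the change with FIH loss in VHL null cells and open points that in cells with VHL, as log2 signal, for the tested members of the hypoxia list (left) and of the list of glucose uptake and glycolysis (right). Lines are red or blue where the interaction was called positive or negative and grey where it was not. In the left panel 19 of 48 lines are red, and in the right panel most pairs of points nearly coincide.

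Genes of glucose uptake and glycolysis had calls in both directions. Of 20 tested members, 3 had a positive and 3 a negative interaction, beside 13.4% and 8.47% of all tested genes. Together these calls were 30% of the members, beside 21.9% of all tested genes. The median of -0.12 turned positive with scaling to the hybridization controls, where 5 were positive and none negative. VHL loss in cells with FIH raised 16 of the 20, beside 15.5% of all tested genes. Pgk1, phosphoglycerate kinase, had 109919 and 91904 in VHL/FIH null cells, 104222 and 95804 in VHL null cells, 70255 and 64039 in FIH null cells and 60109.8 and 58053 in wild type cells, high in both groups without VHL, which overlapped (interaction -0.17 ± 0.12, adjusted p = 0.326). Ldha, Tpi1 and Pgam1, for lactate dehydrogenase, triosephosphate isomerase and phosphoglycerate mutase, had interactions of -0.17, -0.19 and -0.11 (adjusted p = 0.369, 0.278 and 0.449). None of the 6 calls held under every alternative. Pfkfb3, which makes the activator of phosphofructokinase, had 6650.5 and 5183 in VHL/FIH null cells, 3231 and 3086 in VHL null cells, 981 and 982 in FIH null cells and 813 and 857 in wild type cells and an interaction of 0.66 ± 0.17 (adjusted p = 0.0176, 0.00269 to 0.0634 over the alternatives). Slc2a3, a glucose transporter, had 1.07, while Pdk1 and Pdk3, kinases that hold back pyruvate dehydrogenase, had -0.28 and -0.38 (adjusted p = 0.0216, 0.0347 and 0.0143). That of Pdk1 had the opposite sign on linear signals.

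Among 18 tested components of the HIF pathway 2 had a positive and 2 a negative interaction, near the shares of 13.4% and 8.47% among all tested genes. The median of 0.066 turned negative with centring of arrays or chromosomes. Beside Egln3 the other positive one was Epas1, which encodes HIF-2 alpha and had 660.5 and 494 in VHL/FIH null cells, 159 and 204 in VHL null cells, 161 and 112 in FIH null cells and 213 and 222 in wild type cells. It passed the cutoff in VHL/FIH null cells alone, where it was at least 1.98-fold above VHL null cells (interaction adjusted p = 0.0116, and 0.0516 without the first VHL/FIH null array). Cul2 and Elob, parts of the VHL ubiquitin ligase, had -0.55 and -0.28 (adjusted p = 0.004 and 0.0407). The call of Cul2, which lies on chromosome 18, was lost with centring each chromosome (adjusted p = 0.211), and that of Elob under 14 alternatives (adjusted p 0.0052 to 0.32).

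The largest positive interactions among genes above the cutoff on all 8 arrays were those of Rspo2, Fhl1, Ndn, Stox2, Nsg1, Igfbp2, Slit2, Calml4, Sulf1, Rcan2, Alcam and Hs6st2, from 4.21 down to 3.02 (log2). All 12 were called under every alternative run for them. Rspo2, a secreted agonist of Wnt signalling, had 6644 and 6938 in VHL/FIH null cells, 837 and 857 in VHL null cells, 754 and 659.7 in FIH null cells and 1671 and 1686 in wild type cells. It was lower in each single null than in wild type cells and higher than all of them in VHL/FIH null cells, where a mean of 6791 compares with 351 from multiplied single changes (interaction 4.21 ± 0.15, adjusted p = 2.71e-08). Fhl1, a LIM-domain protein of muscle and fibroblasts, had 31962 and 29438 in VHL/FIH null cells, 1648 and 1629.5 in VHL null cells, 17521 and 17603 in FIH null cells and 14798 and 16675 in wild type cells. Only VHL null cells were low. With VHL loss Fhl1 rose by 0.80 in FIH null cells and fell by 3.25 in cells with FIH (interaction 4.05 ± 0.099, adjusted p = 1.17e-09). Igfbp2, which binds insulin-like growth factors, had 5912 and 3000.0 in VHL/FIH null cells, 407 and 432 in VHL null cells, 4860.2 and 4217 in FIH null cells and 6500.1 and 5698 in wild type cells. It was again low in VHL null cells alone, and the 2 VHL/FIH null arrays were far apart and overlapped those of FIH null and wild type cells (interaction 3.71 ± 0.33, adjusted p = 2.37e-05).

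Ndn encodes necdin, an imprinted growth suppressor, and had 13997 and 16877 in VHL/FIH null cells, 963 and 835 in VHL null cells, 2036 and 1815 in FIH null cells and 1629 and 1647 in wild type cells. VHL/FIH null cells stood far above the other 3 groups, and VHL null cells were lowest (interaction 3.85 ± 0.16, adjusted p = 7.44e-08). Sulf1, an enzyme that trims sulfates from heparan sulfate outside the cell, had 16996 and 14642 in VHL/FIH null cells, 1838 and 1644 in VHL null cells, 2027 and 1885 in FIH null cells and 2059 and 1969.8 in wild type cells. Neither single loss moved it past the test, and VHL/FIH null cells alone were high (interaction 3.21 ± 0.14, adjusted p = 8.43e-08). Stox2 and Calml4, a winged-helix protein and a calmodulin-like protein, had the same pattern, with means in VHL/FIH null cells of 4565 and 3981, against 429 and 696 in VHL null cells. Slit2, a guidance ligand of Robo receptors, and Hs6st2, a heparan sulfate sulfotransferase, were lowest in VHL null cells, with means of 11054 and 19986 in VHL/FIH null cells, 986 and 2661 in VHL null cells, 3624 and 9711 in FIH null cells and 3579.8 and 10579 in wild type cells. Nsg1, Rcan2 and Alcam (an endosomal protein of neurons, an inhibitor of calcineurin and an adhesion molecule) fell with FIH loss in cells with VHL and rose with it in VHL null cells.

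**Figure D3:**
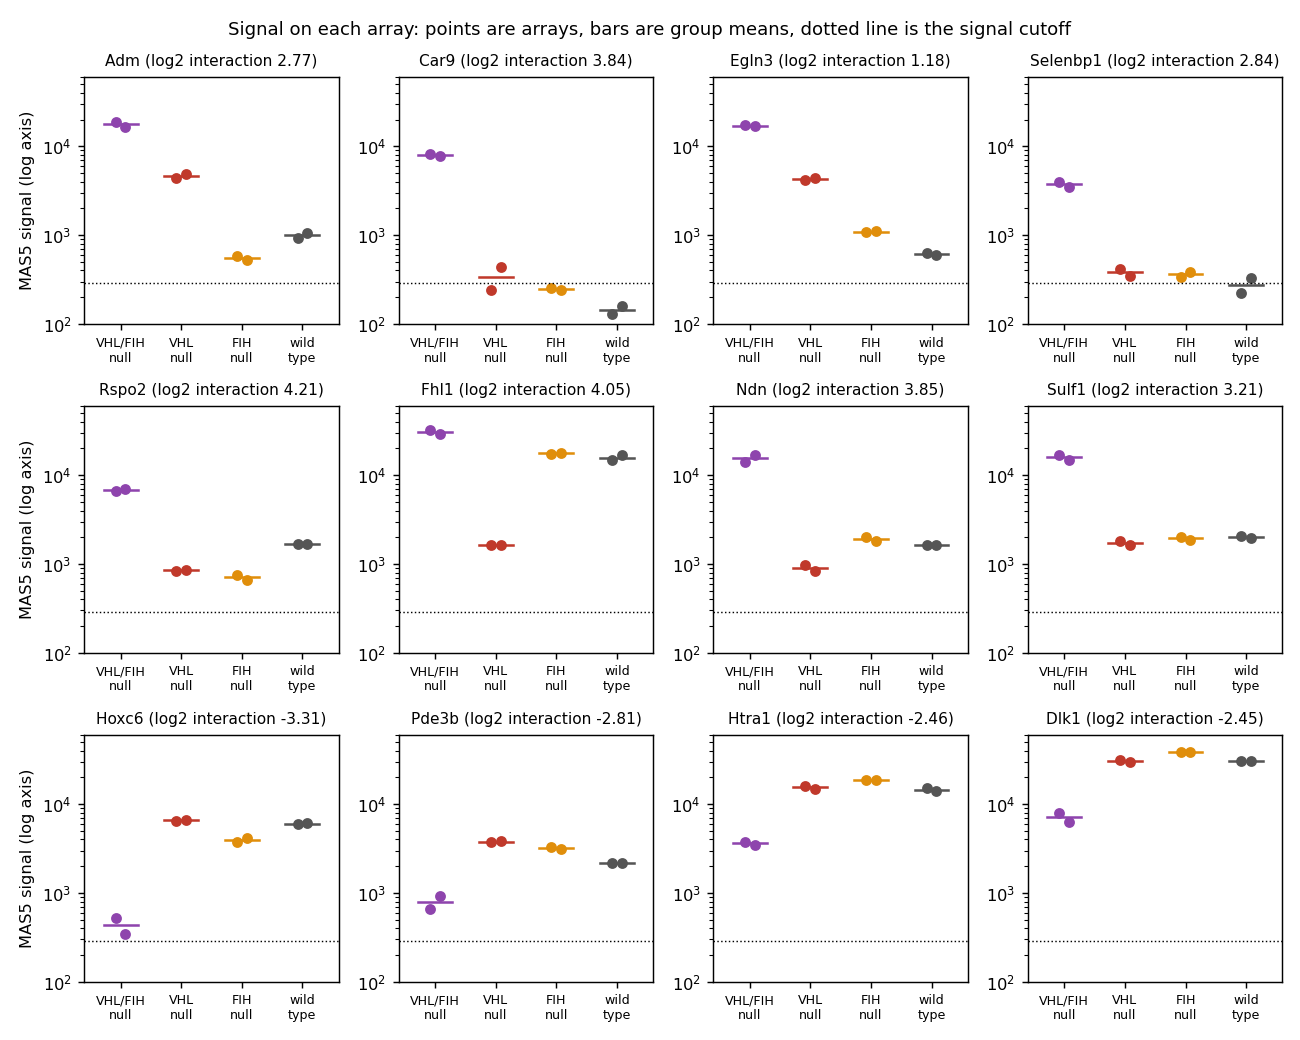
Each panel gives the MAS5 signal of a gene on a log axis, with a point per array and a bar at each group's mean of 2 arrays, and the dotted line is the cutoff of 291.1. The top row holds hypoxia-inducible genes, the middle row large positive and the bottom row large negative interactions. VHL/FIH null arrays are highest in the upper 8 panels and lowest in the lower 4, with no overlap with another group.

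The largest negative interactions among genes above the cutoff on all arrays were those of Hoxc6, Pde3b, Zfp52, Hoxa5, Pdzrn3, Htra1, Dlk1, Pdpn, Cdkn1c, Foxd1, Parp3 and Ltbp2, from -3.31 to -1.88, and these too were called under every alternative run for them. Dlk1, an imprinted inhibitor of adipocyte differentiation related to Notch ligands, had 8009 and 6322 in VHL/FIH null cells, 31726 and 29966 in VHL null cells, 38667 and 38468 in FIH null cells and 30302 and 30886 in wild type cells. Only VHL/FIH null cells were low, and neither single loss moved Dlk1 past the test (interaction -2.45 ± 0.13, adjusted p = 4.34e-07). Cdkn1c, an imprinted inhibitor of cyclin-dependent kinases, had 1608 and 1223 in VHL/FIH null cells, 8914 and 7922 in VHL null cells, 6673 and 6653 in FIH null cells and 8592 and 8913 in wild type cells, with the same pattern (interaction -2.18 ± 0.16, adjusted p = 4.71e-06). Htra1, a secreted serine protease that cleaves matrix proteins, had 3776 and 3464 in VHL/FIH null cells, 15817 and 14967 in VHL null cells, 18893 and 18658 in FIH null cells and 15158 and 13855 in wild type cells. With FIH loss it fell by 2.08 in VHL null cells and rose by 0.37 in cells with VHL (interaction -2.46 ± 0.096, adjusted p = 4.62e-08). Pde3b, a phosphodiesterase that degrades cyclic AMP, had 664 and 930.4 in VHL/FIH null cells, 3758 and 3810.2 in VHL null cells, 3306 and 3152 in FIH null cells and 2182 and 2163 in wild type cells. Each single loss raised it and VHL/FIH null cells were lowest, where a mean of 797 compares with 5617 from multiplied single changes (interaction -2.81 ± 0.19, adjusted p = 3.25e-06). Pdpn, a mucin-type glycoprotein of lymphatic endothelium and fibroblasts, and Foxd1, a forkhead factor of the kidney stroma, averaged 1753 and 1938 in VHL/FIH null cells, against 8787 and 11875 in VHL null cells. Parp3, a DNA repair enzyme, averaged 618 in VHL/FIH null cells, 2278 in VHL null cells, 6132 in FIH null cells and 5791 in wild type cells, and both VHL differences passed.

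For genes with at least 1 array at or below the cutoff the order of the most extreme ones is no measure of size. The positive ones were Pycard, Nts, Slc1a6, Ror1, Ifi202b and Shox2. Pycard, the adaptor of inflammasomes, had 4160.3 and 4794 in VHL/FIH null cells, 7.7 and 59.2 in VHL null cells, 42.4 and 28.6 in FIH null cells and 49 and 97 in wild type cells. VHL/FIH null cells alone were above the cutoff, at least 15.4-fold above VHL null cells and as far above FIH null cells, and adjusted p ran from 3.8e-07 to 0.146 over the alternatives. Shox2, a homeobox factor of the proximal limb, had 10209 and 10249 in VHL/FIH null cells, 453 and 472 in VHL null cells, 207 and 339 in FIH null cells and 818 and 898 in wild type cells, higher in VHL/FIH null cells than in the other 3 groups without overlap (interaction 6.05 ± 0.27, adjusted p = 1.51e-07). Ifi202b, an interferon-inducible DNA-binding protein, had 22408 and 22516 in VHL/FIH null cells, 8835 and 8843 in VHL null cells, 15.7 and 56.7 in FIH null cells and 1287 and 1413 in wild type cells. VHL/FIH null cells were at least 77.2-fold above FIH null cells. Nts, for neurotensin, was above the cutoff in wild type cells only, where VHL null cells were at least 3.36-fold lower, so its interaction rests on signals below the cutoff in the 3 null groups. Slc1a6, a glutamate transporter, and Ror1, a receptor kinase for Wnt ligands, were above the cutoff in both VHL/FIH null arrays, at least 2.64-fold and 2.42-fold above VHL null cells. The call of Ror1 was lost with no filter on low signals (adjusted p 6.72e-05 to 0.85 over the alternatives).

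The negative ones were Hoxc8, Nmu, Gm6958, Lpar3, Zfp945 and Cthrc1. Cthrc1, a secreted glycoprotein of activated fibroblasts, had 418 and 215 in VHL/FIH null cells, 11864 and 12092 in VHL null cells, 2829.8 and 2835 in FIH null cells and 5954 and 6215 in wild type cells. It was lowest in VHL/FIH null cells and highest in VHL null cells (interaction -4.15 ± 0.30, adjusted p = 4.47e-06). Gm6958 had 128 and 62.6 in VHL/FIH null cells, 7943 and 9161 in VHL null cells, 1990.0 and 2100.1 in FIH null cells and 5902 and 6642 in wild type cells, at least 29.4-fold lower in VHL/FIH null than in VHL null cells. Nmu, for the neuropeptide neuromedin U, had 78.3 and 22.4 in VHL/FIH null cells, 1084 and 1095 in VHL null cells, 62.5 and 109 in FIH null cells and 36.5 and 43.5 in wild type cells, above the cutoff in VHL null cells only, and VHL/FIH null cells were at least 3.74-fold below them. Lpar3, a receptor for lysophosphatidic acid, and Zfp945, a zinc finger protein, were at least 2.32-fold and 2.86-fold lower in VHL/FIH null than in VHL null cells. The interaction of Zfp945 turned positive, and was not called, without the first FIH null array.

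In 132 genes FIH loss passed the test in opposite directions in the 2 backgrounds, 105 lower in cells with VHL and higher in VHL null cells, 27 the reverse. Rcan2 had 7858 and 6592 in VHL/FIH null cells, 2025 and 2153 in VHL null cells, 903 and 1158 in FIH null cells and 2490.5 and 2758 in wild type cells. It was lowest in FIH null cells and highest in VHL/FIH null cells (interaction 3.12 ± 0.18, adjusted p = 1.05e-06). Rbm45, an RNA-binding protein, had 13321 and 13736 in VHL/FIH null cells, 9096 and 9351 in VHL null cells, 721 and 805 in FIH null cells and 3701 and 4062 in wild type cells, and Inhbb, the beta B chain of activin and inhibin, had 4201 and 2959.7 in VHL/FIH null cells, 2287 and 2466 in VHL null cells, 308 and 310.5 in FIH null cells and 1361 and 1396 in wild type cells. In both the order was VHL/FIH null, VHL null, wild type and FIH null without overlap, with interactions of 2.88 ± 0.11 and 2.67 ± 0.22 (adjusted p = 4.62e-08 and 1.3e-05). Pdzrn3, a ubiquitin ligase with PDZ domains, had 596 and 592 in VHL/FIH null cells, 2752 and 2537 in VHL null cells, 4848 and 5306 in FIH null cells and 3750.4 and 3903 in wild type cells, lowest in VHL/FIH null and highest in FIH null cells (interaction -2.53 ± 0.13, adjusted p = 4.34e-07).

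Other classes held fewer genes. FIH loss lowered 114 genes with a positive interaction in cells with VHL alone, as for Serpinb1a, a protease inhibitor, with 411 and 589.8 in VHL/FIH null cells, 362 and 507 in VHL null cells, 666 and 439.7 in FIH null cells and 1865 and 1719 in wild type cells. Wild type cells were high and the 3 null groups overlapped (interaction 1.89 ± 0.36, adjusted p = 0.00376). Zfp618, a zinc finger protein, and Pdk4, a kinase of pyruvate dehydrogenase, had the same class, with interactions of 1.74 and 1.59. FIH loss raised 37 genes with a negative interaction in cells with VHL alone, among them Meis2, a homeobox partner of Hox proteins, with -1.07 (adjusted p = 0.00768, and 0.0661 without the variance trend). Of genes with a positive interaction, FIH loss raised 43 in both backgrounds and more in VHL null cells, such as Cavin2, a coat protein of caveolae, with 51149 and 48164 in VHL/FIH null cells, 4945 and 4841 in VHL null cells, 30241 and 30986 in FIH null cells and 21426 and 21949 in wild type cells. VHL null cells were lowest and VHL/FIH null cells highest (interaction 2.84 ± 0.078, adjusted p = 2.81e-09). Of all genes with an interaction, FIH loss lowered 83 in both backgrounds, 31 less and 52 more in VHL null cells. Bicc1, an RNA-binding regulator, had 10298 and 8044 in VHL/FIH null cells, 15259 and 15087 in VHL null cells, 1929.9 and 1832 in FIH null cells and 15884 and 15968 in wild type cells, lowest in FIH null cells. With FIH loss it fell by 0.74 in VHL null cells and fell by 3.07 in cells with VHL (interaction 2.34 ± 0.14, adjusted p = 1.05e-06).

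Hox genes, which give cells their position along the body and limb axes, had interactions in nearly every tested case. Of 25 tested, 9 were positive, 14 negative and 2, Hoxb5 and Hoxb9, not called, beside 13.4% positive and 8.47% negative among all tested genes. Over the clusters together the direction went with the paralogous group, the position of a gene within its cluster, in a pattern described after the values were seen. Of the single clusters only Hoxa divided fully between groups 1 to 8 and 9 to 13. Of 15 genes in groups 1 to 8, 13 were negative and 1, Hoxd8, was positive, whereas of 10 genes in groups 9 to 13, 8 were positive and 1, Hoxc9, was negative. In the Hoxa cluster Hoxa2, Hoxa3, Hoxa4, Hoxa5 and Hoxa7 were negative, from -2.56 to -1.46, and Hoxa9, Hoxa10 and Hoxa11 positive, from 0.85 to 1.68. All 5 tested Hoxd genes were positive and all 4 called Hoxb genes negative, so the counts over all clusters also follow the cluster.

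Hoxa5 had 1873 and 2022 in VHL/FIH null cells, 13061 and 12811 in VHL null cells, 7073 and 7102 in FIH null cells and 7562 and 8339 in wild type cells, lowest in VHL/FIH null and highest in VHL null cells (interaction -2.56 ± 0.10, adjusted p = 4.62e-08). Hoxa10 had 5655 and 5726 in VHL/FIH null cells, 1981 and 1964 in VHL null cells, 2937 and 2802 in FIH null cells and 3153 and 3052 in wild type cells, with VHL/FIH null cells highest and VHL null cells lowest (interaction 1.63 ± 0.11, adjusted p = 2.69e-06). Hoxc6 had 520.2 and 344 in VHL/FIH null cells, 6528 and 6699 in VHL null cells, 3736 and 4194 in FIH null cells and 5931 and 6114 in wild type cells, and only VHL/FIH null cells were near the cutoff (interaction -3.31 ± 0.21, adjusted p = 2.13e-06). Hoxc8 had 196 and 52.5 in VHL/FIH null cells, 17703 and 17541 in VHL null cells, 10152 and 11162 in FIH null cells and 11556 and 14121 in wild type cells. Hoxc8 in VHL/FIH null cells was at least 60.5-fold below VHL null cells and at least 36.6-fold below FIH null cells. Hoxd13, which patterns the digits and genitalia, had 12996 and 12946 in VHL/FIH null cells, 103 and 119 in VHL null cells, 10573 and 10980.1 in FIH null cells and 7009 and 6221 in wild type cells. It was below the cutoff in VHL null cells only, where VHL/FIH null cells were at least 44.6-fold higher (interaction 5.97 ± 0.13, adjusted p = 6.53e-10). The sign of Hoxc10 depended on the scale: its interaction was 1.96 (adjusted p = 0.00512) but negative on linear signals, and the call was lost with low signals raised to the cutoff (adjusted p = 0.72). The call of Hoxa3 was lost without probe sets that may cross-hybridize (adjusted p = 0.553).

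**Figure D4:**
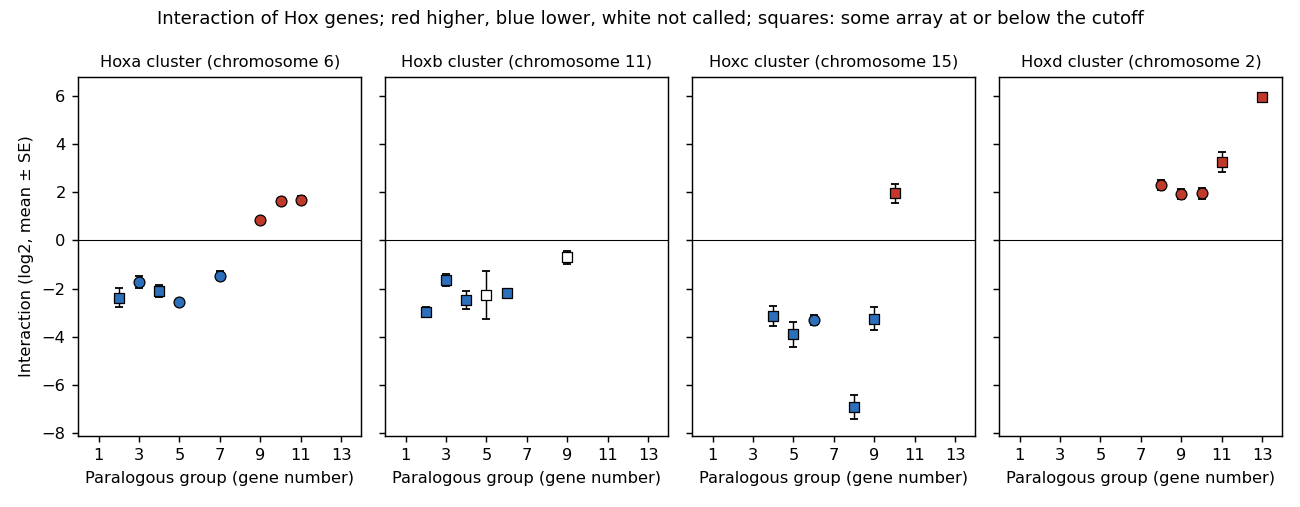
Interaction (log2, mean with SE as the bar) of the 25 tested Hox genes by paralogous group in the 4 clusters. Red marks positive, blue negative and white uncalled interactions, and squares are genes with an array at or below the cutoff. In the Hoxa panel values are below 0 on the left and above 0 on the right. All Hoxb genes lie below 0 and all Hoxd genes above 0, and in the Hoxc panel only Hoxc10 lies above 0.

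Together with T-box and other limb factors the list held 39 tested genes, 17 positive and 15 negative, beside 13.4% and 8.47% of all tested genes. Its median of 0.045 turned negative with quantile scaling and with centring of arrays, while the calls stayed at 16 to 18 positive and 15 negative under the other 4 scalings. Of the 32 calls 26 held under every alternative. Tbx18, a T-box factor of mesenchyme, had 6966 and 7042 in VHL/FIH null cells, 2112 and 2126 in VHL null cells, 2322 and 2438 in FIH null cells and 2682 and 2644 in wild type cells, with VHL/FIH null cells far above the rest (interaction 1.88 ± 0.11, adjusted p = 1.04e-06). Tbx15, a T-box factor of the skeleton and skin named after its values were seen, had 1.68 (adjusted p = 2.42e-06).

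Of 24 tested targets of p53, 12 had a positive and 2 a negative interaction, beside 13.4% and 8.47% of all tested genes. Their median of 0.49, beside 0.064, stayed between 0.30 and 0.65 under the other scalings, and the positive calls between 10 and 12. Large T antigen binds and inactivates p53, and all groups carry it. Of the 14 calls 10 held under every alternative. Cdkn1a, the p21 inhibitor of cyclin-dependent kinases, had 25422 and 22083 in VHL/FIH null cells, 9183 and 8742 in VHL null cells, 5303 and 5619 in FIH null cells and 6391 and 5027 in wild type cells. Again VHL/FIH null cells were highest without overlap (interaction 1.46 ± 0.15, adjusted p = 6.87e-05). Ccng1, for cyclin G1, had 51614 and 49701 in VHL/FIH null cells, 26062 and 26312 in VHL null cells, 23819 and 23438 in FIH null cells and 24652 and 25532 in wild type cells, nearly equal in the other 3 groups (interaction 1.04 ± 0.074, adjusted p = 4.47e-06). Trp53inp1, a stress protein that promotes cell death and autophagy, had 10701 and 9861 in VHL/FIH null cells, 3109.5 and 3526 in VHL null cells, 2081 and 2188 in FIH null cells and 3118 and 3315 in wild type cells, highest in VHL/FIH null and lowest in FIH null cells (interaction 2.22 ± 0.12, adjusted p = 6.99e-07). Eda2r, a receptor for ectodysplasin A2, had 2.46. Perp, a desmosomal protein, was one of the 2 negative members at -0.84 (adjusted p = 0.00118) and was named after its values were seen.

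Cell cycle and DNA replication genes had calls in both directions. Of 49 tested, 9 were positive and 6 negative, near the shares of 13.4% and 8.47% among all tested genes. The median of 0.011 turned negative with centring of arrays or chromosomes, where 5 were positive and 9 or 7 negative. Ccnd2, for cyclin D2, had 29394 and 28038 in VHL/FIH null cells, 16127 and 16718 in VHL null cells, 19164 and 18590.3 in FIH null cells and 19870.3 and 20265 in wild type cells, highest in VHL/FIH null cells (interaction 0.89 ± 0.077, adjusted p = 2.15e-05). Cdk6, a partner kinase of D cyclins, had 5452 and 4847 in VHL/FIH null cells, 11273 and 10614 in VHL null cells, 9577 and 10939.5 in FIH null cells and 9757 and 11875 in wild type cells, low in VHL/FIH null cells alone (interaction -1.01 ± 0.14, adjusted p = 0.000588).

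Interferon-stimulated genes had 9 positive and no negative calls among 26 tested, beside 13.4% and 8.47% of all tested genes, with a median of 0.56 beside 0.064. Under the other scalings the positive calls numbered 8 to 13 and the median was 0.46 to 0.72, and 6 calls held under every alternative. Ifi27, a mitochondrial protein, had 3873 and 3184 in VHL/FIH null cells, 691 and 689.9 in VHL null cells, 1596 and 1846 in FIH null cells and 1842 and 2075 in wild type cells, lowest in VHL null and highest in VHL/FIH null cells (interaction 2.51 ± 0.18, adjusted p = 4.71e-06). Rtp4, a chaperone of receptors, had 1220.1 and 1194 in VHL/FIH null cells, 292 and 334 in VHL null cells, 1607 and 1321 in FIH null cells and 1262 and 1169 in wild type cells. Only VHL null cells were low (interaction 1.64 ± 0.22, adjusted p = 0.000473). Ifitm3, a membrane protein that restricts viruses, and Ifi35 had 0.76 and 0.53 (adjusted p = 0.000411 and 0.002), and the call of Ifi35 was lost with the mean of its probe sets and without those that may cross-hybridize (adjusted p up to 0.106). Targets and inhibitors of NF-kB had 2 positive and 3 negative calls among 25, near the shares of all tested genes, with a median of -0.18, and 4 and 3 after scaling to the hybridization controls. Ccl2, a chemokine for monocytes, had -0.99, Csf1, the macrophage growth factor, 0.67 and Bcl3, a nuclear partner of NF-kB, -0.98 (adjusted p = 7.98e-05, 0.000365 and 0.0122).

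IGF and Wnt signalling had 15 positive and 2 negative calls among 34, beside 13.4% and 8.47% of all tested genes, with a median of 0.57 beside 0.064. Under the other scalings the positive calls numbered 11 to 17 and the median was 0.45 to 0.73, and 9 calls held under every alternative. Beside Rspo2 and Igfbp2 these included Dkk2, a Wnt antagonist, with 3166 and 3222 in VHL/FIH null cells, 278 and 276 in VHL null cells, 959 and 821 in FIH null cells and 772 and 746 in wild type cells. Its VHL null arrays were below the cutoff, and VHL/FIH null cells were at least 11-fold above them (interaction 3.23 ± 0.21, adjusted p = 2.33e-06). Igfbp4, named after its values were seen, was negative at -2.12 (adjusted p = 0.000941). Imprinted genes had 7 positive and 3 negative calls among 18, with a median of 0.35 (5 to 8 positive and 3 or 4 negative under the other scalings), and 6 held under every alternative. Beside Ndn, Plagl1, a zinc finger regulator of other imprinted genes, had 31321 and 24764 in VHL/FIH null cells, 8617 and 8027 in VHL null cells, 9748 and 10846 in FIH null cells and 12715 and 12454 in wild type cells, far higher in VHL/FIH null cells than in the rest (interaction 2.03 ± 0.14, adjusted p = 3.25e-06, and 0.0753 without probe sets that may cross-hybridize). Rian and Meg3, long noncoding RNAs of the imprinted cluster that holds Dlk1, were negative like it, at -1.63 and -1.55 (adjusted p = 0.000205 and 0.000163), the second named after its values were seen.

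Notch receptors are substrates of FIH. Of 27 tested genes of the Notch pathway 5 were positive and none negative, with a median of 0.39, beside 13.4% and 8.47% of all genes, and only Notch1 was called under every alternative. With centring of arrays or chromosomes 2 were positive. Notch1 had 1697 and 1528 in VHL/FIH null cells, 1018 and 1295 in VHL null cells, 1014 and 1053 in FIH null cells and 2631 and 2388 in wild type cells. Wild type cells were highest, and VHL/FIH null cells stood above both single nulls (interaction 1.75 ± 0.19, adjusted p = 0.000117). Jag1, a Notch ligand, Numb, an inhibitor of Notch, and Nrarp, a target of it, had 0.997, 0.39 and 2.30 (adjusted p = 0.0435, 0.0138 and 0.0143), and all 3 calls were lost under some alternatives (adjusted p up to 0.38, 0.198 and 0.0858). Among 15 tested ankyrin-repeat substrates of FIH, 2 were positive, near the share of 13.4% among all tested genes. These were Notch1 and Asb4, part of a ubiquitin ligase, and the list's median of 0.17 turned negative with centring each chromosome. Asb4 had 293 and 224 in VHL/FIH null cells, 1579 and 1807 in VHL null cells, 164 and 238 in FIH null cells and 2796 and 3007 in wild type cells, near or below the cutoff in both groups without FIH, where FIH null cells were at least 9.97-fold under wild type cells. Its interaction rests on these low signals (adjusted p = 0.0206, up to 0.0845 over the alternatives).

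Collagens and other extracellular matrix genes had 11 positive and 4 negative calls among 36, beside 13.4% and 8.47% of all tested genes. Their median of 0.11 turned negative with centring each chromosome, and the calls came to 10 and 7 with centring of arrays and 8 and 6 with centring each chromosome. Col6a3, a chain of the microfibrillar collagen VI, had 4729 and 4558 in VHL/FIH null cells, 524 and 470.3 in VHL null cells, 587 and 544 in FIH null cells and 389.6 and 412 in wild type cells, high in VHL/FIH null cells alone (interaction 2.70 ± 0.21, adjusted p = 8.76e-06). Col12a1, which coats collagen fibrils, had 6215 and 5101 in VHL/FIH null cells, 942 and 870.3 in VHL null cells, 3669 and 3370.5 in FIH null cells and 2900.1 and 2821 in wild type cells, highest in VHL/FIH null and lowest in VHL null cells (interaction 2.32 ± 0.15, adjusted p = 2.33e-06). Ogn, a small proteoglycan, and Thbs1, the matricellular thrombospondin 1, had 1.78 and 1.01 (adjusted p = 1.32e-05 and 3.81e-05), and both fell with FIH loss in cells with VHL and rose with it in VHL null cells. Enzymes that remodel the matrix had 10 positive and 2 negative calls among 25, with a median of 0.36 (0.16 to 0.53 under the other scalings), and 7 and 4 with centring of arrays and 6 and 3 with centring each chromosome. Adamts5, which cleaves aggrecan and versican, had 17441 and 15175 in VHL/FIH null cells, 2465 and 2763 in VHL null cells, 11682 and 11568 in FIH null cells and 9555 and 9687 in wild type cells, low in VHL null cells only (interaction 2.36 ± 0.11, adjusted p = 2.14e-07). Loxl3, a collagen cross-linking oxidase, had 13035 and 12263 in VHL/FIH null cells, 2262 and 2256 in VHL null cells, 3641 and 3529 in FIH null cells and 3424 and 3038 in wild type cells, with VHL/FIH null cells far above the rest (interaction 2.32 ± 0.11, adjusted p = 2.39e-07). Adamts1 and Adam19, further metalloproteases, had 0.89 and 1.60.

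Contractile and myofibroblast genes had 6 positive and 2 negative calls among 18, beside 13.4% and 8.47% of all tested genes, with a median of 0.26. The positive calls numbered 3 with centring each chromosome and 10 with scaling to the hybridization controls. Acta2, smooth muscle actin, had 31539 and 28414 in VHL/FIH null cells, 14579 and 14201 in VHL null cells, 25369 and 24474 in FIH null cells and 29785 and 30482 in wild type cells, lower in VHL null cells than in the other 3 groups (interaction 1.33 ± 0.087, adjusted p = 2.42e-06). Cnn1, for calponin 1, had 10874 and 9027 in VHL/FIH null cells, 5142 and 4979 in VHL null cells, 2454 and 2158 in FIH null cells and 3544 and 3737 in wild type cells, highest in VHL/FIH null and lowest in FIH null cells (interaction 1.62 ± 0.14, adjusted p = 1.81e-05). Ankrd1, a nuclear target of mechanical signalling, was negative with 4478 and 5578 in VHL/FIH null cells, 28743 and 26884 in VHL null cells, 8024 and 7710.0 in FIH null cells and 17024 and 17705 in wild type cells, highest in VHL null cells (interaction -1.33 ± 0.13, adjusted p = 4.56e-05). Cadherins and adhesion molecules had 8 positive and 3 negative calls among 24, with a median of 0.11 (6 to 8 positive and 3 or 4 negative under the other scalings). Cdh11, the cadherin of mesenchymal cells, had 4044 and 3749 in VHL/FIH null cells, 1624 and 2018 in VHL null cells, 177 and 191 in FIH null cells and 3402 and 3622 in wild type cells. FIH null cells alone were below the cutoff, at least 12.1-fold under wild type, while VHL/FIH null cells were highest (interaction 5.24 ± 0.18, adjusted p = 2.31e-08). Alcam had 3115 and 4182 in VHL/FIH null cells, 2130.0 and 2338 in VHL null cells, 408 and 346 in FIH null cells and 2060.5 and 2115 in wild type cells, highest in VHL/FIH null and lowest in FIH null cells (interaction 3.11 ± 0.21, adjusted p = 2.77e-06). Itga6, the integrin alpha 6 chain, had 1.67, and Pcdh9, a protocadherin, -1.98 (adjusted p = 2.13e-06 and 0.000298).

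Among other metabolic lists, fatty acid and cholesterol synthesis had no positive and 10 negative calls among 30, beside 13.4% and 8.47% of all tested genes, with a median of -0.16. After scaling to the hybridization controls the calls were 3 positive and 2 negative and the median 0.00052. VHL loss in cells with FIH lowered all 30, beside 28.4% of all tested genes. Srebf2, the master regulator of cholesterol synthesis, had 3183 and 2806 in VHL/FIH null cells, 4481 and 4362 in VHL null cells, 9091 and 8675 in FIH null cells and 9110.5 and 8888 in wild type cells. Both groups without VHL were low, VHL/FIH null cells more so (interaction -0.54 ± 0.11, adjusted p = 0.0042, up to 0.796 on linear signals). Sc5d, Cyp51 and Scd1, enzymes of sterol and fatty acid synthesis, had -0.58, -0.48 and -0.43 (adjusted p = 0.00144, 0.00428 and 0.00492), and no call of this list held under every alternative. Oxidative phosphorylation had 1 positive and 8 negative calls among 58, with a median of -0.10. The calls came to 6 positive and 3 negative, with a positive median, after scaling to the hybridization controls, and to 0 and 14 with centring of arrays. Ndufs5 and Ndufs8, subunits of complex I, were the 2 whose calls held under every alternative, and Ndufs5 had 8998 and 8898 in VHL/FIH null cells, 19578 and 17825 in VHL null cells, 16802 and 16743 in FIH null cells and 16013 and 16894 in wild type cells. Only VHL/FIH null cells were low (interaction -1.09 ± 0.087, adjusted p = 1.09e-05). The tricarboxylic acid cycle had 2 positive and 2 negative calls among 20, with a median of -0.075, and fatty acid oxidation 3 and 3 among 22, with a median of 0.13, and both medians changed sign with a scaling. With centring of arrays the calls were 0 and 6 for the first and 3 and 5 for the second.

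**Figure D5:**
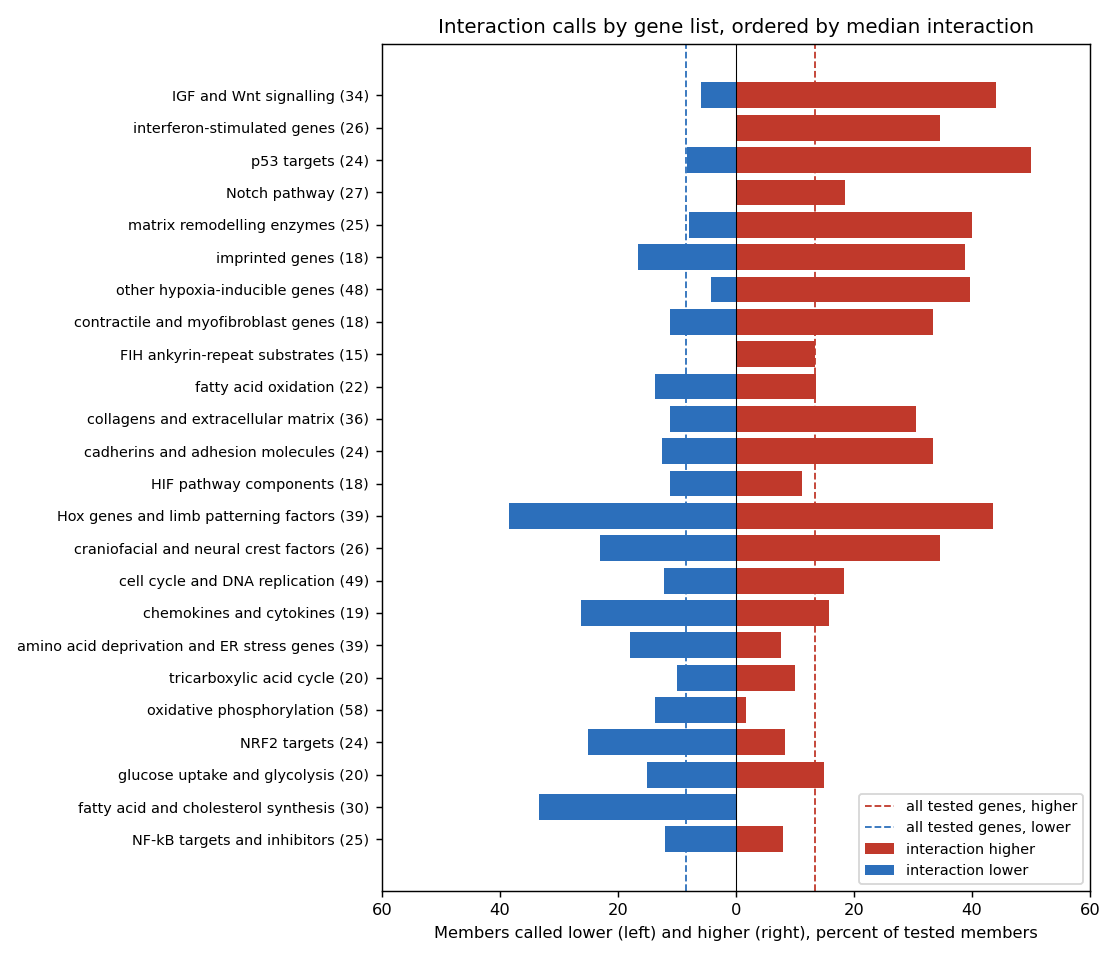
Share of the tested members of each list with a positive interaction (red, to the right) and a negative one (blue, to the left), in percent, with the number tested in brackets and lists ordered by median interaction. Dashed lines mark the shares among all tested genes, 13.4% positive and 8.47% negative. Red bars of several lists pass their line clearly, among them p53 targets and IGF and Wnt signalling. Blue bars that pass theirs include fatty acid and cholesterol synthesis and NRF2 targets. Hox genes and limb factors pass both, as do craniofacial and neural crest factors.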

How the data were processed

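Total RNA of 8 samples was hybridized to 1 Affymetrix Mouse Genome 430 2.0 array each, with biotin as the label. The deposited values are MAS5 signal intensities on a linear scale, per the submitters' processing notes, which give no version, and no raw scans were used here. The authors scaled each array: the mean without the lowest and highest 2% was 2500.01 on every array. The number of arrays, 2 per group, limits the precision. MAS5 subtracts mismatch probes, so low signals are unstable.

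Probe sets were named through GEO's platform annotation updated by RefSeq (34945 of 45101 with 1 symbol, 932 with several, 9160 with none; 64 controls left out). Limma 3.58.1 (R 4.3.3) was fitted to the 4 group means of log2(signal + 16) over 11564 gene rows, with a variance trend and Benjamini-Hochberg adjustment over all of them. All intervals after ± are standard errors of that fit. A call is an adjusted p under 0.05. A signal at or below the cutoff of 291.1 in both arrays of a group gives a bound, at least N-fold, against that cutoff. The fit was tested on simulated data.

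The text names the 12 largest positive and 12 largest negative calls above the cutoff on all 8 arrays, the 6 of each sign with an array below it, up to 4 called members of each gene list by adjusted p, 4 uncalled members of the hypoxia and glycolysis lists with the highest means, and 3 genes per class of FIH and VHL effects. Hif1an, Vhl, sex-linked genes and the genes of the 3 promoters are named as well. Other genes are said to be chosen after their values were seen, as were Hoxa10, Hoxa3, Hoxc10 and the genes whose sign turned under an alternative. The members and lists were chosen with earlier results of these data known, and no list is independent evidence. Same-numbered arrays did not deviate together (r of 0.00869 to 0.0393 over 6 pairs), so the numbers do not pair them. Alternatives covered the pseudocount, filter, scaling, variance model, probe set choice, linear scale and each array left out. Those that raise low signals to the cutoff or leave out chromosomes 5, 9 and 18 were chosen after seeing the data.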

Additional observations from a re-analysis of the deposited data

Results flagged for a closer look

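The change with FIH loss differed between VHL null cells and cells with VHL, by limma's test of the difference itself, for 2533 genes. It passed in opposite directions in 132 of them, and the change with VHL loss passed in opposite directions in FIH null cells and cells with FIH in 387. Of the 132, 20 are named by the rule for genes and had signals above the cutoff on all arrays. Named genes with an array at or below the cutoff, such as Cdh11, were left out of this list. In 15 of these FIH loss raised the gene in VHL null cells and lowered it in cells with VHL, and their interactions (log2) were 4.21 for Rspo2, 3.78 for Nsg1, 3.12 for Rcan2, 3.11 for Alcam, 2.88 for Rbm45, 2.77 for Adm, 2.67 for Inhbb, 2.22 for Trp53inp1, 1.78 for Ogn, 1.75 for Notch1, 1.67 for Itga6, 1.62 for Cnn1, 1.60 for Adam19, 1.33 for Acta2 and 1.01 for Thbs1. In the other 5 the directions were turned round, with -0.46 for Mthfd2, -0.64 for Cxcl12, -2.46 for Htra1, -2.53 for Pdzrn3 and -2.81 for Pde3b. The call of Mthfd2, an enzyme of mitochondrial folate metabolism, was lost after scaling to the hybridization controls (adjusted p = 0.0713), and that of Cxcl12, a chemokine of stromal cells, when all its probe sets were averaged (adjusted p = 0.121). Groups of 2 arrays allow no check for a single array that stands apart from its group.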

How the results depend on the processing

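Of 276 called genes given above or in the same lists, 158 kept direction and call under every alternative run for them, 7 changed sign and 117 lost the call under at least 1. The count of interactions was 1648 without the first FIH null array and 1648 to 2537 over the fits that left out 1 array (positive 1061 to 1460, negative 587 to 1077), and 1319 of the 2533 (52.1%) were called in all 8 of these. At least 2-fold changes numbered 636 (486 positive, 150 negative). Positive calls numbered 2597 with scaling to the hybridization controls and 923 with centring each chromosome. Negative calls numbered 1544 with centring of arrays, 405 with scaling to the controls, 594 with no variance trend and 591 without chromosomes 5, 9 and 18. FIH loss in VHL null cells gave 693 calls at 2-fold (3100 to 4207 with 1 array left out). FIH loss in cells with VHL gave 1426 with centring of arrays, 4992 with scaling to the controls, 421 with no variance trend and 212 at 2-fold, and 356 to 961 with 1 array left out, with 356 and 394 without the first and second FIH null array and 371 and 373 without the first and second wild type array. VHL loss gave 901 calls at 2-fold in FIH null cells (3942 to 5187) and 8165 with scaling to the controls and 627 at 2-fold in cells with FIH (3603 to 5453). With the replicate number as a block, 2810 interactions were called, 2511 of them among the 2533, and no count moved by over 1.5 times.

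Signs turned for Col1a1 (0.015) and Fads1 (0.058) with the mean of probe sets, for Fam162a (-0.16), Higd1a (-0.16), Lox (0.082) and Stard4 (0.037) with centring each chromosome, for Hif1an (-0.0079) and Kdm6a (-0.013) with centring of arrays, and for Pgam1 (0.049) with scaling to the controls. On linear signals they turned for Hoxc10 (-334), Igfbp7 (-557) and Pdk1 (921). With 1 array left out values ran from -0.044 (without the first VHL/FIH null array) to 0.26 for Fam162a, from -0.033 (likewise) to 0.23 for Hif1an, from -0.13 (without the first FIH null array) to 0.32 for Kdm6a, and from -4.92 to 0.18 (without the first FIH null array) for Zfp945. Kdm5c, near 0, gave -0.079 with quantile scaling, -0.10 and -0.046 with centring of arrays and chromosomes, -6.25 on linear signals, -0.36 with the mean of probe sets, and -0.18 to 0.19 with 1 array left out. The cause of these turns was not tested. The limit is signal over background: 216 positive and 73 negative calls rest on genes with an array at or below the cutoff.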

Other observations

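Chemokines and cytokines had 3 positive and 5 negative interactions among 19 tested genes, beside 13.4% and 8.47% of all tested genes, with a median of -0.030 that turned positive after scaling to the hybridization controls, and 6 of the 8 calls held under every alternative. Ccl9, a chemokine of myeloid cells, had 128 and 178 in VHL/FIH null cells, 1302 and 1197 in VHL null cells, 548 and 421 in FIH null cells and 525 and 591 in wild type cells. VHL null cells were highest and VHL/FIH null cells alone were below the cutoff, at least 4.29-fold lower than VHL null cells (interaction adjusted p = 0.000292). Tnfsf11 and Tnfrsf11b encode RANKL, the driver of osteoclast formation, and osteoprotegerin, its decoy receptor, and both were named after their values were seen. Tnfsf11 had 199 and 217 in VHL/FIH null cells, 1094 and 905 in VHL null cells, 225 and 276 in FIH null cells and 319 and 333 in wild type cells, and VHL/FIH null cells, below the cutoff, were at least 3.43-fold under VHL null cells. The interaction was negative for Tnfsf11 (adjusted p = 0.00571) and positive for Tnfrsf11b, at 2.23 ± 0.38 (adjusted p = 0.00201).

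Craniofacial and neural crest factors had 9 positive and 6 negative calls among 26, beside 13.4% and 8.47% of all tested genes. Their median of 0.028 turned negative with quantile scaling and with centring of arrays or chromosomes. Lhx9, a LIM homeobox factor, had 10299 and 10686 in VHL/FIH null cells, 2526 and 2359 in VHL null cells, 4684 and 4798 in FIH null cells and 4559.7 and 4328 in wild type cells, highest in VHL/FIH null cells and lowest in VHL null cells (interaction 2.00 ± 0.10, adjusted p = 3.41e-07). Zic1, a zinc finger factor of neural development, had 104 and 39.3 in VHL/FIH null cells, 13829 and 14791 in VHL null cells, 189 and 179 in FIH null cells and 5762 and 6067 in wild type cells. Both FIH null groups were below the cutoff, so VHL/FIH null cells were at least 49.2-fold below VHL null cells and FIH null cells at least 20.3-fold below wild type cells. Targets of NRF2 had 2 positive and 6 negative calls among 24, with a median of -0.12 that turned positive after scaling to the hybridization controls, where 4 were positive and 2 negative. Me1, the cytosolic malic enzyme, at 0.60 ± 0.076, and Fth1, the heavy chain of ferritin, at -0.39 ± 0.078, were the 2 whose calls held under every alternative (adjusted p = 0.000296 and 0.00492). Genes of amino acid deprivation and ER stress had 3 positive and 7 negative calls among 39, with a median of -0.053 that also turned positive with that scaling, where 5 were positive and 1 negative. Psat1 and Phgdh, enzymes of serine synthesis, were negative at -0.41 and -0.47 (adjusted p = 0.0047 and 0.00759), and each call was lost under 1 alternative (adjusted p = 0.0678 and 0.0588).

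Markers of other cell types had calls too, given here beside 13.4% positive and 8.47% negative calls among all tested genes. Neural and glial markers had 3 positive and 1 negative among 8 tested, with sums of 17689 to 19543 in VHL/FIH null cells, 9848 to 10648 in VHL null cells, 12262 to 12563 in FIH null cells and 12090 to 12180 in wild type cells. Map2, a protein of neuronal microtubules, was positive at 2.58 ± 0.19. It was lowest in VHL null cells, with 323 and 274.5 there and 1777 and 1662 in wild type cells. VHL/FIH null cells, with 3863 and 3037.5, overlapped FIH null cells, with 3157 and 3186. Stmn2, also positive, had 9655 and 8057.5 in VHL/FIH null cells and less in the other groups. Sox2 went the other way, with 10.6 and 4.1 in VHL/FIH null cells, 122 and 223 in VHL null cells, 611 and 483 in FIH null cells and 611 and 466 in wild type cells. Its call was lost on linear signals and with low signals raised to the cutoff. Cartilage and bone markers had 2 positive and 1 negative among 7, and Col10a1, a collagen of hypertrophic cartilage, had 4354 and 4187 in VHL/FIH null cells, 144 and 75.3 in VHL null cells, 532 and 525 in FIH null cells and 256 and 283 in wild type cells, highest in VHL/FIH null cells. Acan and Col2a1, a proteoglycan and a collagen of cartilage, were not: Acan had 214 and 384 in VHL/FIH null cells, 1533 and 1923 in VHL null cells, 228 and 209.7 in FIH null cells and 592 and 508 in wild type cells, highest in VHL null cells (interaction negative, adjusted p = 0.0424, up to 0.153 over the alternatives). Col2a1 had 86.5 and 62.5 in VHL/FIH null cells, 402 and 572 in VHL null cells, 24.1 and 40.2 in FIH null cells and 2049.5 and 2272 in wild type cells, highest in wild type cells and below the cutoff in both groups without FIH, so its positive interaction rests on low signals. Adipocyte markers had 1 positive call among 4, Fabp4, a fatty acid carrier, with 2153 and 1669 in VHL/FIH null cells, 261 and 209 in VHL null cells, 322 and 265 in FIH null cells and 330.3 and 403 in wild type cells, high in VHL/FIH null cells. Skeletal muscle markers had 1 positive call among 4, endothelial markers 1 among 5, and fibroblast markers 2 positive and 3 negative among 12. Epithelial markers had 1 of each sign among 6, and macrophage markers 1 negative among 3. Sex-linked genes had 3 positive and 1 negative call among 7. The 3 were the Y-linked Eif2s3y, Uty and Kdm5d, detected on all 8 arrays, and Eif2s3y had 8128 and 9404 in VHL/FIH null cells, 3490.3 and 3693 in VHL null cells, 8336 and 8659 in FIH null cells and 5492 and 5982 in wild type cells, lowest in VHL null cells.

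Of 2835 tested probe sets without a single gene symbol, 286 (10.1%) had an interaction when each was tested alongside all probe sets, 124 positive and 162 negative. In the same fit 3855 of all 24523 tested probe sets were called (15.7%).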
